A study of Mus musculus with 4 samples.

Results

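The genes described here encode the machinery that starts and extends protein synthesis and the enzymes that charge tRNAs, as measured in mouse liver RNA. They were taken by symbol from the authors' deposited gene table as initiation factor genes (Eif followed by a digit), elongation factor genes (Eef1 and Eef2) and aminoacyl-tRNA synthetase genes, which gave 67 of the 7000 genes listed. By name, 42 of them belong to initiation, 3 to elongation, 16 are cytosolic synthetases and 6 are mitochondrial synthetases. Liver RNA was sequenced after rRNA removal from 2 wild-type FVB/N mice given no added selenium (0 Se) and 2 given 0.1 ppm Se as sodium selenite (0.1 Se). All 4 animals were males that received the torula yeast-based diet for 6 weeks from weaning, and they differed in the selenite supplement.

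For each gene the table holds the length of its RefSeq mRNA and a single mean level over the 4 libraries, the log2 of reads of the gene per 1000000 reads of its library (CPM), next to the authors' own comparison of the diets, which is not used here. Because the table has no columns for single mice, neither the depth of a library nor the spread between mice is known, and no difference between the diets is described. All levels below are the authors' means over both diets without an error, so no difference between genes can be set against the spread between mice. To compare genes, the mean CPM was divided by the mRNA length in kilobases (CPM per kb).

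The rows run in the order of the authors' p-value for diet and stop at 7000, so inclusion depends on that comparison. The GENCODE vM1 annotation of NCBIM37, the assembly also known as mm9, has 101 protein-coding genes whose symbols match the same rule. The other 34 are not analysed here, and they include Eef1a1, Eef1g and Eef2, which encode the main elongation factors, and Eif2s3x, Eif3b, Eif4a2, Eif4b, Iars and Mars. The liver origin of the RNA was checked with markers. Of 8 hepatocyte markers 4 are listed, at 1837 to 20523 CPM (Serpina1c, Cyp2e1, Apoa1 and Trf). Of 6 Kupffer cell markers 5 are listed at 10.2 to 180 CPM, of 5 endothelial markers 4 at 28.2 to 133 CPM, and of 5 stellate cell markers 5 at 3.597 to 185 CPM. None of the 4 cholangiocyte, 5 lymphocyte or 3 skeletal muscle markers is listed. The hepatocyte markers Alb, Ttr, Cps1 and Hnf4a are not listed either, so a marker that is missing says nothing about its level. The share of each cell type in the levels below was not tested, and in whole tissue fewer cells of a type and less RNA per cell cannot be told apart.

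In translation initiation, eIF2 brings the initiator tRNA to the small ribosomal subunit, eIF3 and eIF1A help to assemble the complex, and eIF4F binds the mRNA cap and recruits the mRNA. Elongation factors then deliver each charged tRNA and move the ribosome along. Aminoacyl-tRNA synthetases attach each amino acid to its tRNA, with separate enzymes for cytosol and mitochondria in most cases. Liver makes most of the protein of blood plasma and is a major site of protein synthesis.

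Together the 67 mRNAs accounted for 4892 CPM, or 0.755% of the 647615 CPM summed over all genes listed. Their median was 20.9 CPM per kb, against 6.19 CPM per kb for the 7000 genes. By level per kb, 55 of the 67 lay above the median of the listed genes and 38 lay above the 75th percentile of 18.03 CPM per kb. The median was 22.9 CPM per kb for initiation, 27.96 for elongation and 20.4 for cytosolic synthetases, but 3.33 CPM per kb for mitochondrial synthetases. Eif4a1 was the highest member at 200.2 CPM per kb and Eif2c4 the lowest at 0.558 CPM per kb, a 359-fold range.

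**Figure D1:**
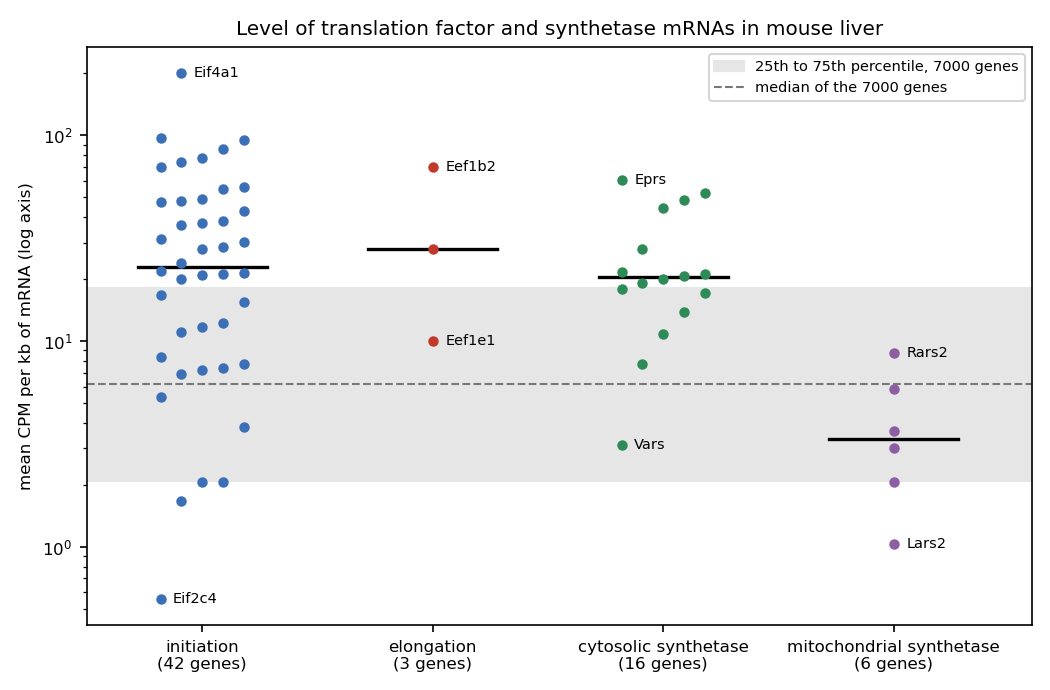
Mean level of each of the 67 mRNAs in CPM per kb of mRNA (vertical log axis), 1 point per gene in 4 classes, with the class median as a black bar, the median of the 7000 listed genes as a dashed line and their 25th to 75th percentiles as a grey band. The medians of initiation, elongation and cytosolic synthetase genes lie above the band, which ends at 18.03 CPM per kb, and that of the mitochondrial synthetases, 3.33 CPM per kb, lies below the dashed line.

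The initiation class held 31 genes for factors proper, with a median of 36.5 CPM per kb. Of these, 29 were above the median of the listed genes. The 31 include Eif5a by its symbol, although it encodes a protein that acts in elongation. The other 11 carry the Eif prefix but encode kinases, argonautes, eIF4E-binding proteins, a helicase of the exon junction complex or the eIF1A-like Eif1ad product, and had a median of 7.43 CPM per kb. Both values come from the same authors' table, so the gap between the groups is a matter of levels and has no test.

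The eIF4F complex combines the cap-binding protein eIF4E, the scaffold eIF4G and the RNA helicase eIF4A, and its genes covered the widest range. Eif4a1, on chromosome 11 of NCBIM37 from 69480438 to 69485925 with 11 exons in the transcript matched to it, had 376 CPM. Eif4g1, on chromosome 16 from 20668386 to 20692957, had the largest CPM of any member, 515, which on its long mRNA of 5417 bases was 95.2 CPM per kb. Per kb, Eif4a1 was 2.10-fold above Eif4g1, while without division by length Eif4g1 was 1.37-fold above Eif4a1. Eif4e, on chromosome 3 from 138189155 to 138220563, stood at 61.0 CPM and 21.2 CPM per kb, so that the scaffold mRNA was 4.49-fold above the cap-binding one, or 1.16-fold per kb of coding sequence.

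Within this complex the paralogs were unequal. Eif4g3, which encodes a related scaffold, had 7.25 CPM per kb, 13.1-fold below Eif4g1. Eif4e3, for a cap-binding relative of eIF4E, had 1.67 CPM per kb and was 12.7-fold below Eif4e. Only 20.7% of the listed genes were lower than Eif4e3.

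The eIF4E-binding proteins hold eIF4E away from eIF4G when they are not phosphorylated by mTOR. Eif4ebp1, on chromosome 8, had 28.1 CPM per kb, which was 1.33-fold the level of Eif4e itself. This order turned with the length used, as Eif4e was 2.21-fold above Eif4ebp1 without division by length and 1.20-fold above it per kb of coding sequence. Eif4ebp2 on chromosome 10 had 11.1 CPM per kb, 2.54-fold below Eif4ebp1. Eif4ebp3 on chromosome 18 had 21.9 CPM per kb. Of the 50-base stretches of its annotated mRNA, 65.5% also occur in transcripts of Ankhd1, and since the authors kept unique alignments only, its level is uncertain. Eif4enif1, which encodes the eIF4E transporter, was the lowest of the 4 at 5.31 CPM per kb.

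The eIF3 complex is the largest initiation factor, and 11 of its subunit genes are listed. All 11 lay above the median of the listed genes and 10 above the 75th percentile. The highest was Eif3i, on chromosome 4 from 129269204 to 129277892, at 86.2 CPM per kb, followed by Eif3e at 74.3, Eif3m at 70.4, Eif3c at 56.0 and Eif3h at 54.9 CPM per kb. Eif3g (48.8 CPM per kb), Eif3l (48.2) and Eif3k (47.6) formed a close group although their mRNAs ran from 773 to 1893 bases. Eif3d had 38.4 CPM per kb and Eif3a, the scaffold subunit with an mRNA of 5176 bases, 36.5 CPM per kb.

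These 10 subunits spanned 2.36-fold between Eif3i and Eif3a, an order that turned without division by length, where Eif3a was 1.98-fold above Eif3i. Eif3f, on chromosome 7 from 116077931 to 116086465, was apart from them at 25.3 CPM and 16.8 CPM per kb, 5.14-fold below Eif3i. Eif3f encodes 1 of the subunits with an MPN domain, and Eif3h, its partner in this domain type, was at 54.9 CPM per kb. No annotated transcript close to the deposited Eif3f length of 1507 bases was found in GENCODE vM1, where the matched one has 2514 bases.

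**Figure D2:**
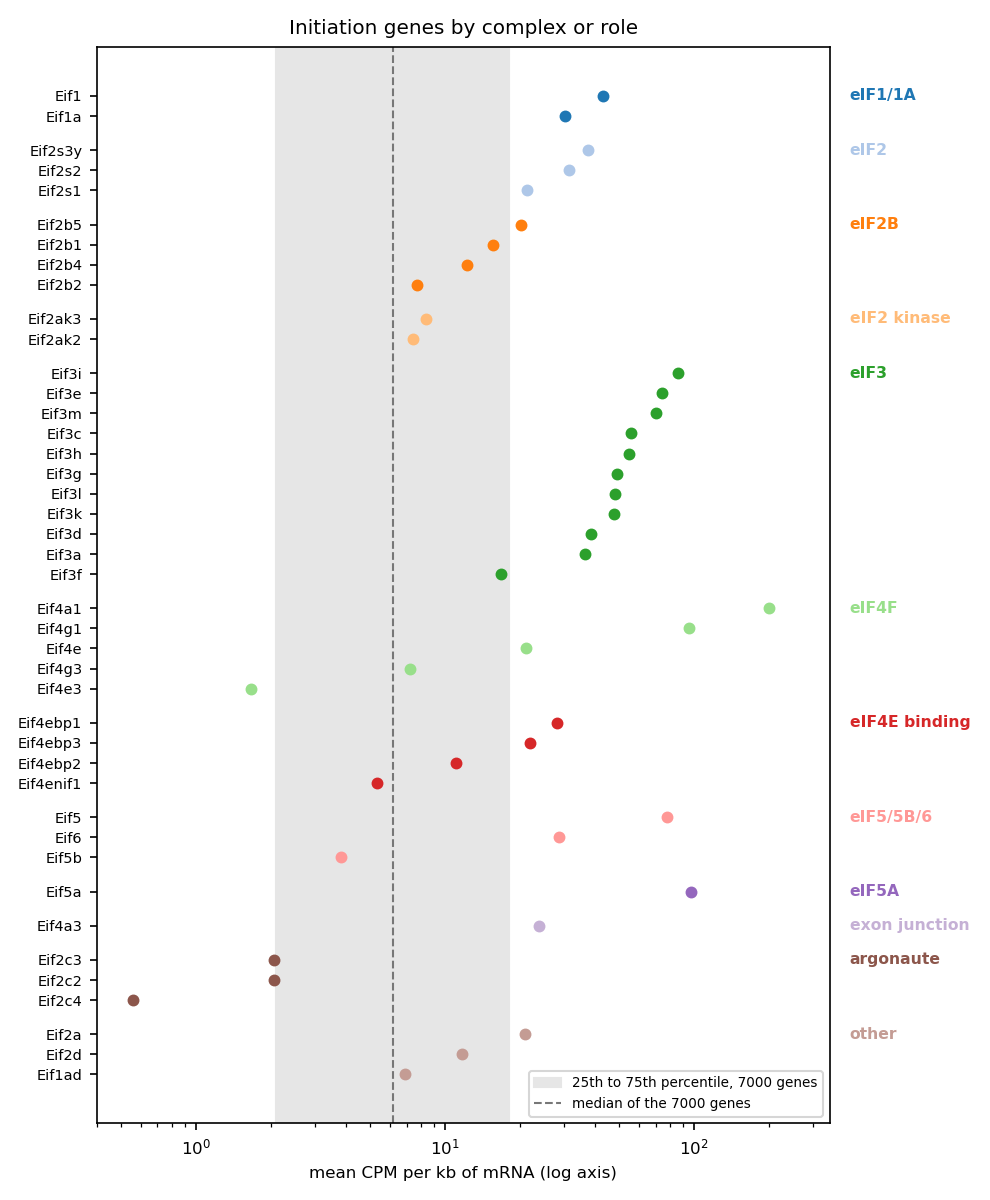
Mean level in CPM per kb of mRNA (horizontal log axis) of the 42 genes with an initiation factor symbol, 1 point per gene, grouped by complex or role, with the median of the 7000 listed genes as a dashed line and their 25th to 75th percentiles as a grey band. The eIF3 subunits other than Eif3f run from 36.5 to 86.2 CPM per kb, the eIF2B subunits from 7.69 to 20.1 CPM per kb and the argonautes lie at or below 2.06 CPM per kb.

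The eIF2 complex has the subunits α, β and γ. Eif2s1 (α), on chromosome 12 from 79962806 to 79987997, had 67.1 CPM, Eif2s2 (β), on chromosome 2, had 79.1 CPM, and Eif2s3y, the Y-linked copy of the γ subunit gene, had 66.1 CPM. Per kb these were 21.3, 31.5 and 37.4 CPM per kb, a range of 1.76-fold between Eif2s3y and Eif2s1, which without division by length were within 1.02-fold of each other, with Eif2s1 the higher. The deposited length of Eif2s3y is 1767 bases and its annotated transcript shares no 50-base stretch with transcripts of other genes. Its X-linked copy, Eif2s3x, is not analysed here, so the total γ subunit mRNA is not known.

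The exchange factor eIF2B reloads eIF2 with GTP, and it is the step blocked when eIF2α is phosphorylated. Of its subunit genes 4 are listed, and each was below all 3 eIF2 subunit genes per kb. Eif2b5, which encodes the catalytic ε subunit, was the highest at 20.1 CPM per kb, followed by Eif2b1 (α) at 15.5, Eif2b4 (δ) at 12.2 and Eif2b2 (β) at 7.69 CPM per kb. The fold between the highest and the lowest was 2.61.

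Kinases of eIF2α are the sensors that trigger this block. Eif2ak3, which encodes the endoplasmic reticulum stress kinase PERK, had 37.5 CPM, and Eif2ak2, which encodes the double-stranded RNA sensor PKR, had 32.1 CPM. Per kb they were close, at 8.34 and 7.43 CPM per kb, whereas per kb of coding sequence Eif2ak2 was 1.85-fold above Eif2ak3. By level per kb of mRNA both were in the middle of the listed genes. All 5 stress response genes fixed as a list are in the table. Atf4, whose translation rises when eIF2α is phosphorylated, had 54.8 CPM per kb and Ppp1r15b, for the constitutive eIF2α phosphatase subunit, 22.4 CPM per kb, whereas Ddit3 had 13.9, the inducible Ppp1r15a 4.0 and Trib3 2.04 CPM per kb.

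The genes for start site selection and subunit joining differed widely in level. Eif1, which guards start codon choice, had 43.0 CPM per kb and Eif1a 30.3 CPM per kb. Of the 50-base stretches of Eif1, 31.3% recur in transcripts of Gm16378, and under unique alignment its level is uncertain. Eif5, the GTPase-activating protein of eIF2, reached 77.5 CPM per kb. Eif6, which keeps the large ribosomal subunit from joining early, had 28.5 CPM per kb. Eif5b, the GTPase that joins the subunits, had 3.81 CPM per kb, 20.4-fold below Eif5, from 29.7 CPM and an mRNA of 7797 bases. It was 10.4-fold below Eif5 without division by length and 29.3-fold below it per kb of coding sequence. The coding sequence is 3651 bases in Eif5b and 1290 of 3966 bases in Eif5. In both a large part of the length that divides the level is noncoding.

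Among the remaining Eif genes, Eif2a and Eif2d, which encode alternative carriers of initiator tRNA, had 20.9 and 11.7 CPM per kb. Eif4a3, for the helicase of the exon junction complex, had 23.9 CPM per kb, with 18.2% of its 50-base stretches recurring in Gm5576. Eif1ad, which resembles eIF1A, had 6.87 CPM per kb. The argonaute genes Eif2c2, Eif2c3 and Eif2c4, for proteins that carry microRNAs and are not translation factors, were low per kb of mRNA. Eif2c2 and Eif2c3 had 2.06 CPM per kb each, from 16.5 and 15.7 CPM on mRNAs of 8031 and 7635 bases. Without division by length Eif2c2 and Eif2c3 were close to the median of the listed genes, 18.7 CPM. Eif2c4 had 0.558 CPM per kb from 3.64 CPM.

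Of elongation, the table holds the nucleotide exchange side of eEF1. Eef1b2 on chromosome 1, from 63223399 to 63227060, had 136 CPM and 70.4 CPM per kb. Eef1d on chromosome 15 had 79.6 CPM and 27.96 CPM per kb, 2.52-fold lower. The deposited lengths are those of the longest isoforms, 1933 and 2847 bases, and for Eef1b2 the coding sequence of the matched transcript is 678 bases. Eef1e1, which despite its symbol encodes the multisynthetase complex protein also known as AIMP3, had 10.3 CPM and 9.96 CPM per kb. Eif5a carries an initiation symbol but encodes a hypusine-containing protein that acts in elongation. At 140 CPM and 97.2 CPM per kb it was the second highest member per kb. Dhps, which makes the first step of the hypusine, had 3.76 CPM per kb. Of the diphthamide genes for eEF2, Dph1 is the 1 listed and had 4.62 CPM per kb.

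The 16 cytosolic synthetase genes ranged 19.4-fold per kb, and 15 of them lay above the median of the listed genes. Eprs, the fused glutamyl and prolyl enzyme on chromosome 1 from 187186974 to 187252234, was the highest at 293 CPM and 60.4 CPM per kb. Nars, for asparagine, had 52.3 CPM per kb, Tars, for threonine, 48.5 and Aars, for alanine, 44.2 CPM per kb. Next after these 4 genes was Kars, for lysine, at 28.1 CPM per kb. A group of 7 genes then lay between 17.0 and 21.5 CPM per kb, from Hars, Rars, Farsb, Gars, Qars and Lars to Sars. Below them were Yars at 13.9, Farsa at 10.8 and Wars at 7.70 CPM per kb, and the lowest was Vars, for valine, at 13.1 CPM and 3.11 CPM per kb.

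Farsa and Farsb encode the subunits of the cytosolic phenylalanyl enzyme, and Farsb was 1.92-fold above Farsa per kb. Fars2, for the mitochondrial one, is not analysed here. Vars, on chromosome 17 from 35137932 to 35153267, encodes the enzyme that associates with eEF1 and was 19.4-fold below Eprs. Its transcript was the richest in G and C of the synthetases, at 60.9%. Kars and Gars encode both the cytosolic and the mitochondrial enzyme, so lysine and glycine have no separate mitochondrial gene.

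Several synthetases are bound in 1 large multisynthetase complex. Of its enzymes 5 are listed, with a median of 21.3 CPM per kb, against 20.01 for the 11 cytosolic synthetases outside it. Eprs was 2.15-fold above Kars and 3.37-fold above Lars, the lowest of the 5 at 17.9 CPM per kb, whereas Rars had 21.3 and Qars 19.1 CPM per kb. Of the scaffold genes, Aimp1 at 22.1 CPM per kb was above Rars, Qars and Lars and below Kars and Eprs. Aimp2 at 6.55 and Eef1e1 at 9.96 CPM per kb were below all 5 enzymes. Per kb of coding sequence Eprs was 3.28-fold above Eef1e1 and 3.35-fold above Lars, which put Eef1e1 slightly above Lars.

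Promoters of 51 of the 67 genes were found in the RefSeq promoter table of GRCm38.p6, each 250 bases before to 50 after a transcript start, 61 promoters in all. The promoters of Nars, Hars, Rars, Lars, Wars and Vars were not among them, nor those of Eef1d, Eif3i, Eif3e, Eif3h, Eif1a, Eif6, Eif4ebp1, Eif4ebp3, Eif2c2 and Eif4e3. The C/EBP-ATF composite element, written TGATGNAAN and bound by ATF4 with C/EBP proteins in many genes of amino acid metabolism, was searched on both strands. It was present in 4 of the 10 cytosolic synthetase promoters found, 40.0%, and in 3.95% of all 32851 promoters. None of 43 initiation, 2 elongation or 6 mitochondrial synthetase promoters held it. A match in each of the 4 promoters is shown because they fell in a single class, with 30 bases in the direction of transcription and the element in capitals, on either strand. The element is a letter match and not a measured binding site.

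Aars, chr8:111033839-111033868: tagcgggtcacTTTTCATCAgagcgctctg
Tars, chr15:11399656-11399685: ccaggagtcccGTTGCATCAgctggttagc
Gars, chr6:55037959-55037988: ctggctgcgctATTTCATCAtgcaccgggc
Yars, chr4:129189895-129189924: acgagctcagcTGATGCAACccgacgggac

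The promoter of Tars lies on the minus strand and the others on the plus strand. Counted from the transcript start, the element shown began at 8 in Aars, at -16 in Tars, at -31 in Gars and at 3 in Yars. A further match in Aars, which is not shown, began at -113. In Yars the element was read on the coding strand and in the other promoters on the template strand. The genes with a match spanned from 13.9 CPM per kb for Yars and 20.01 for Gars to 44.2 for Aars and 48.5 for Tars, within the range of the searched cytosolic synthetases without one, from 10.8 for Farsa to 60.4 CPM per kb for Eprs.

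A pyrimidine tract at the transcript start, a C followed by at least 4 pyrimidines, is the mark of TOP mRNAs, whose translation follows mTOR activity and which include many factors of this machinery. Counted from such a C, whatever base came before it, a tract began exactly at an annotated start in 2 of the 61 promoters, 3.28%, against 2.51% of all promoters. Within 5 bases of the start it was found in 17 of 61, or 27.9%, against 18.3%. By class these were 11 of 43 initiation and 0 of 2 elongation promoters. The cytosolic synthetases had 3 of 10 and the mitochondrial ones 3 of 6. Some genes have several promoters, and Eif4enif1, with 4, gave 2 of the 17. No test was made of these shares. Eif3f and Eif2s3y are shown as those with the most bases counted from the matched C, which are in capitals, both on the plus strand of GRCm38.p6.

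Eif3f, chr7:108934405-108934434: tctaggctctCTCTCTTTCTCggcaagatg
Eif2s3y, chrY:1010587-1010616: ccacagccaCTTCCTTCTTTCgtgagcaag

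In Eif3f the 11 bases in capitals began at the annotated start, within an unbroken pyrimidine run of 15 bases that began at -4. In Eif2s3y the run was the 12 bases shown, from 1 base after the start. The longest unbroken run around a match was that of Eif2b5, with 21 bases from -17. Their levels were 16.8 CPM per kb for Eif3f and 37.4 CPM per kb for Eif2s3y, the lowest of the eIF3 and the highest of the eIF2 subunits listed.

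Mitochondrial synthetases charge the tRNAs that read the mitochondrial genome, which encodes few proteins, all of the respiratory chain or ATP synthase. The 6 genes summed to 66.5 CPM, against 1290 CPM for the 16 cytosolic genes. Rars2, for arginine, on chromosome 4 from 34562206 to 34607416, was the highest at 8.76 CPM per kb and alone above the median of the listed genes. Cars2 had 5.84, Vars2 3.66, Tars2 3.02 and Wars2 2.06 CPM per kb. Lars2, on chromosome 9 from 123276058 to 123371782, was the lowest at 4.01 CPM and 1.03 CPM per kb, 8.49-fold below Rars2.

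For 5 amino acids both genes are listed, and in 4 of these the cytosolic gene had the higher level. The ratio of cytosolic to mitochondrial mRNA per kb was 17.4 for leucine, 16.04 for threonine, 3.73 for tryptophan and 2.43 for arginine. The size of these ratios depends on the length used. The coding sequence is 1083 bases for Wars2 on an mRNA of 4388, and 1272 for Tars2 on one of 3322. For valine the order was the other way, with Vars2 1.18-fold above Vars, and the mice give no error with which to separate the pair. Both genes lie on chromosome 17, 639 kb apart. In the arginine pair Rars2 was the highest gene of its class, while Rars at 21.3 CPM per kb was near the median of the cytosolic genes.

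**Figure D3:**
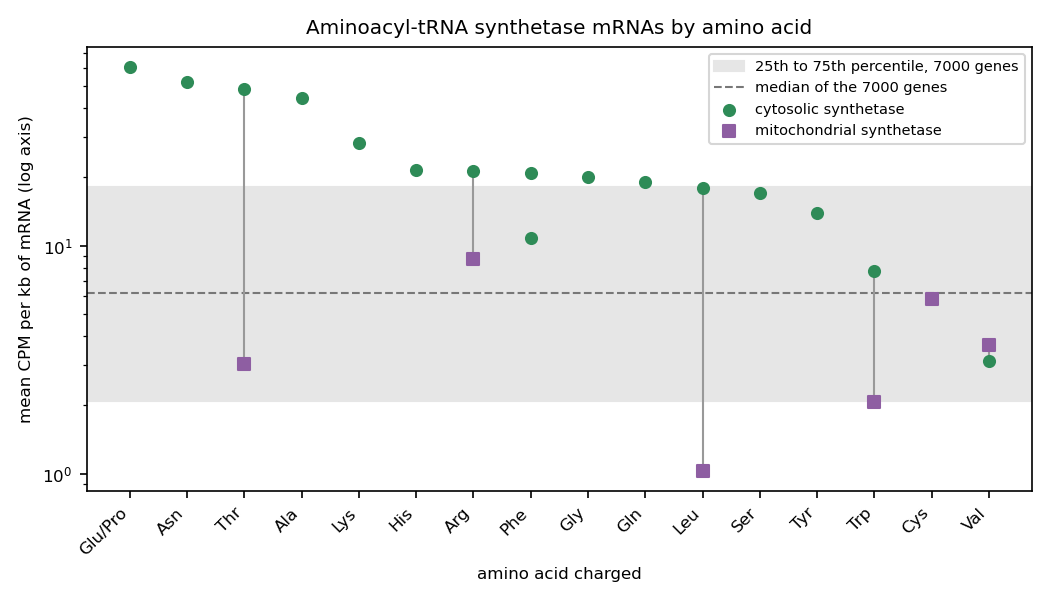
Mean level in CPM per kb of mRNA (vertical log axis) of 16 cytosolic (circles) and 6 mitochondrial (squares) synthetase genes, placed by the amino acid that they charge, with a line joining the cytosolic and the mitochondrial gene of 1 amino acid, the median of the 7000 listed genes dashed and their 25th to 75th percentiles as a grey band. The lines are long for threonine and leucine, at 16.04- and 17.4-fold, and for valine the square lies above the circle.

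Other genes of the pathway were taken from fixed lists, of which 25 of 41 genes are in the table. Ears2, the mitochondrial glutamyl enzyme that the symbol rule leaves out, had 5.78 CPM per kb, within the range of the other 6. Of 9 mitochondrial translation factor genes 7 are listed, from Tufm, the mitochondrial elongation factor Tu, at 46.4 CPM per kb to Mtrf1l, for a release factor, at 2.36 CPM per kb. Tufm, Mrrf at 11.2, Gfm2 at 10.01 and Tsfm at 9.37 CPM per kb were above Rars2, the highest mitochondrial synthetase. Without division by length Tsfm, at 11.1 CPM, was below Rars2, at 16.4 CPM. Of 6 release and recycling genes 3 are listed, Abce1 at 39.4, Gspt1 at 15.1 and Gspt2 at 0.557 CPM per kb. The poly(A)-binding protein gene Pabpc1 had 28.9 CPM per kb and Paip2, for its inhibitor, 56.2 CPM per kb. Denr, for a reinitiation factor, had 12.1 CPM per kb. Of 5 selenocysteine genes, Secisbp2, for the protein that binds the selenocysteine insertion element, had 5.04 CPM per kb, and Sephs2, which makes the selenium donor and is itself a selenoprotein gene, had 519 CPM per kb.

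The members differed in mRNA length, which bears on every level per kb. The median length was 2112 bases for the initiation genes, 2643 for the cytosolic and 3602 for the mitochondrial synthetases, and 2960 for all genes listed. The argonautes, Eif5b, Eif4g3, Eif4g1 and Eif3a had the longest mRNAs. Long mRNAs were not all low in CPM, as Eif4g1 with 5417 bases had 515 CPM and Eif5b with 7797 bases had 29.7 CPM.

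**Figure D4:**
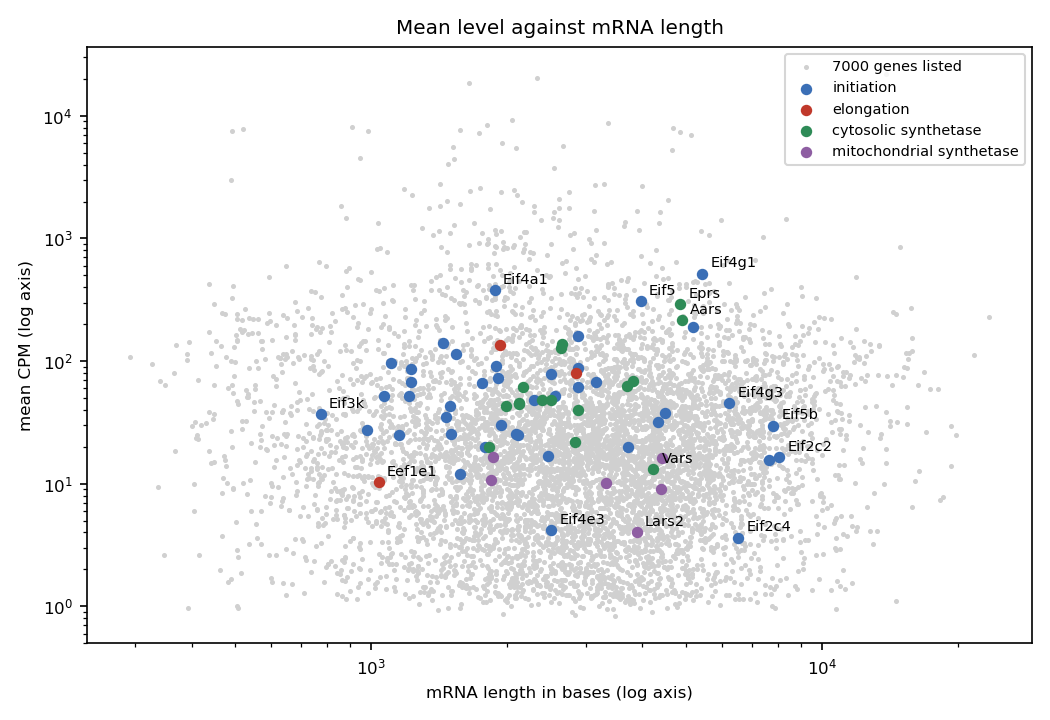
Mean level in CPM (vertical log axis) against mRNA length in bases (horizontal log axis) for the 7000 listed genes in grey and the 67 members in the colours of their classes. Eif4g1 at 515 CPM and Eif4a1 at 376 CPM are the highest members. The argonaute gene Eif2c4, at 3.64 CPM, is the lowest member, while the argonautes Eif2c2 and Eif2c3 have 16.5 and 15.7 CPM.

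Members were spread over 19 chromosomes, and 8 pairs lie within 1000 kb of each other. The closest were the argonaute genes Eif2c3 and Eif2c4 on chromosome 4, 60.0 kb apart, with 2.06 and 0.558 CPM per kb. Eif4ebp3 and Hars on chromosome 18 are 101 kb apart and had 21.9 and 21.5 CPM per kb. The level of Eif4ebp3 is uncertain, as 65.5% of its 50-base stretches also occur in Ankhd1. Eif2b5 and Eif4g1 on chromosome 16, 158 kb apart, and Eif4a1 and Eif5a on chromosome 11, 244 kb apart, each combined genes of different complexes. The pair on chromosome 11 held the genes with the highest levels per kb of all members, 200.2 and 97.2 CPM per kb.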

How the data were processed

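Liver RNA of 4 mice was sequenced by the authors after rRNA removal. Bowtie was used by the authors to align reads to mm9 RefSeq mRNAs, with the longest isoform standing for a gene, and unique alignments with up to 2 mismatches were kept. Genes above 1 CPM in 3 or more of the samples were passed to edgeR by the authors. The log2 mean CPM was made by the authors with edgeR and is used as deposited, as is the mRNA length. The deposited log2 fold changes, p-values and FDR are the authors' own comparison of the diets and were not used. Tool versions were not found in these sources. The comparison of diets from counts that had been planned was not run, as the table has no columns for single mice.

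The mean CPM was calculated as 2 to the power of the deposited value and divided by mRNA length in kb. Members, classes and lists were chosen with earlier results of these data known. Every member could be named, and the 3 highest and 3 lowest of each class, the subunits of each complex and both genes of each synthetase pair are given with values. Classes were assigned after the symbols, and the folds between single genes were chosen after the levels were seen. The tolerance of 5 bases for tracts was added to the plan later. Positions, exon numbers, G and C content and coding lengths come from GENCODE vM1 on NCBIM37, in which a transcript within 10% of the deposited length was found for 63 of the 67 genes and a coding length for 66. Stretches of 50 bases, the read length, were compared with the transcripts of all other annotated protein-coding genes without mismatches, and 60 of the 67 genes shared none. Motifs were searched in RefSeq promoters of GRCm38.p6, and coordinates of that build are given with the sequences alone. Not every match found is reported here. Both searches were tested on simulated data. Genes of the fixed lists were also matched through RefSeq synonyms (Tf as Trf). No test between genes was made, because genes are not replicates. Python 3.11.15, pandas 2.3.3, numpy 2.4.6 and matplotlib 3.10.9 were used.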

Additional observations from a re-analysis of the deposited data

How the results depend on the processing

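The class medians moved with the unit and the members counted, and as no spread between mice is known, any shift is given. On the log2 scale of CPM per kb they were 4.52 for initiation, 4.81 for elongation, 4.35 for cytosolic and 1.73 for mitochondrial synthetases. Without division by length they were 5.54, 6.31, 5.58 and 3.38, and per kb of coding sequence 5.75, 5.33, 4.65 and 2.84. With genes of at least 5 CPM only, initiation was 4.70 and mitochondrial synthetases 1.87. With factors and enzymes only, initiation was 5.19 and elongation 5.47. As means of the log2 values the classes were at 4.31, 4.75, 4.34 and 1.71. With Eif5a moved to elongation, an alternative chosen after seeing the data, initiation was 4.45 and elongation 5.47. With shared 50-base stretches taken off the length, also chosen after seeing the data, initiation was 4.82. The mitochondrial synthetases had the lowest median of the 4 classes under each of these settings, while the order of the other classes changed.

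The cytosolic gene was the higher in 4 of 5 pairs under each length scaling, and in 3 of the 4 pairs with both genes at 5 CPM or more. The folds between single genes were recomputed with 2 lengths after seeing the data. Without division by length the ratio turned to 0.451 for Eif4ebp1 over Eif4e, 0.730 for Eif4a1 over Eif4g1, 0.506 for Eif3i over Eif3a, 0.985 for Eif2s3y over Eif2s1 and 0.597 for Eif1 over Eif1a. Per kb of coding sequence it turned to 0.834 for Eif4ebp1 over Eif4e, 0.540 for Eif2ak3 over Eif2ak2, 0.760 for Eif1 over Eif1a and 0.833 for Eif2a over Eif1ad. Of the members, 53 lay above the median of the listed genes without division by length, 48 of 64 with at least 5 CPM, and 47 of the 55 factors and enzymes. Coding lengths were taken from GENCODE in place of the protein table that had been planned. DESeq2, unfiltered counts and leaving out single mice, planned for counts, were not run. No paired analysis was possible because the table has no columns for single mice. Unknown depth leaves the precision of low genes such as Lars2 and Eif2c4 unknown.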
